A study of Mus musculus with 14 samples.

Results

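Imprinted genes are transcribed mainly from one parental copy. In the mouse Dlk1-Dio3 domain the protein-coding genes Dlk1 and Dio3 are transcribed from the paternal chromosome, whereas the long noncoding RNAs Meg3, Rian and Mirg come from the maternal chromosome and carry many small RNAs within them. Dlk1 encodes a membrane protein that restrains the differentiation of fat precursors, Dio3 encodes the deiodinase that inactivates thyroid hormone, and Dio3os is a noncoding RNA that starts beside Dio3 on the opposite strand. H19, a maternal noncoding RNA of the Igf2 region, is one of several imprinted genes linked to growth before birth. The 7 genes Dlk1, Meg3, Rian, Mirg, Dio3os, Dio3 and H19 were taken by symbol from the 43472 genes of the count tables, and all 7 were present. They are described in primary fibroblasts after a scratch wound, with or without a skin extract, and the question was whether the lower level of Dio3os in treated cells was shared by its neighbours.

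The fibroblasts were isolated from C57BL/6 mouse tail tips with collagenase and grown in medium with fetal bovine serum. Every culture was a scratch assay, so the untreated groups were wounded too. Autologous micrograft (AMG) is mouse skin that was mechanically disrupted in saline and filtered; its soluble, cell-depleted fraction was given at 1:10 in growth medium. Replicate 1 was sequenced untreated and AMG-treated at 1, 5, 12 and 24 h (8 libraries), and replicates 2, 3 and 4 untreated and AMG-treated at 5 h (6 libraries). The labels do not say whether a replicate number stands for an animal or a culture, so p-values measure the spread between these libraries, which may be technical. The deposited values gave back 12545537 to 34696529 reads per library. The tables of 8 and of 6 libraries were scaled separately, so levels were compared within a table. The tail tip holds several tissues, and bulk counts cannot tell fewer cells of a type from less RNA per cell.

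The 14 libraries had the RNA of fibroblasts, with a summed level of the 9 fibroblast markers between 213210 and 615253 normalised counts. Of the markers of other cells, Myod1 and Myf5 (muscle precursors), Cidec and Lep (adipocytes), Krt1 and Dsg3 (keratinocytes) and Cd3e (lymphocytes) were at 0 in all libraries. Other markers on the same lists were present, with highest levels of 7289 for Acta1 and 623 for Des (muscle), 2067 for Fabp4 (adipocyte), 698 for Dsp (keratinocyte) and 1541 for Lyz2 and 187 for Csf1r (leukocyte). Pmp22, of the Schwann cell list, reached 3144. Replicate 3 stood apart from replicates 2 and 4 in Thy1. Its level was 14712 and 14412 normalised counts in the untreated and treated libraries of replicate 3, against 1068 to 1723 in the other 4. The cartilage collagen Col2a1 differed between each of these replicate numbers. It was at 21940 and 12336 in replicate 2, 1102 and 691 in replicate 4 and 252 and 200 in replicate 3. In replicate 1, ribosomal protein genes took 5.10% of the reads of the treated 1 h library and 7.003% of those of the untreated 5 h library, against 2.31% to 3.24% in its other 6 libraries.

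By the GENCODE M21 annotation of GRCm38 (mm10), the locus on chromosome 12 runs from Dlk1 (109452823 to 109463336, plus strand) through Meg3 (109541001 to 109571726), Rian (109603940 to 109661716) and Mirg (109729764 to 109749460), all on the plus strand, to Dio3os (110275385 to 110278172, minus strand) and the single-exon gene Dio3 (110279068 to 110281097, plus strand). Mirg and Dio3os lie 526 kb apart. Dio3os and Dio3 are separated by only 895 bases and point away from each other. H19 lies on chromosome 7 (142575529 to 142578143, minus strand) and is in no neighbourhood with the others. The annotation release and the strand setting behind the counts are not given in the sources used here, but the annotated bodies of Dio3os and Dio3 do not overlap.

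Sequence just upstream of both the RefSeq and the GENCODE start is shown for the pair of divergent genes lower with AMG at 5 h. It is also shown for Meg3, the first noncoding RNA of the cluster, for which no change was called at 5 h. Capitals mark matches, on either strand, to the GC box GGGCGG, the CCAAT box CCAAT, the TATA box TATAAA or the cyclic AMP response element TGACGTCA. The sequences are from RefSeq (GRCm38.p6), read 5′ to 3′ on the strand of the gene.
Dio3os, chr12:110278173-110278318, minus strand: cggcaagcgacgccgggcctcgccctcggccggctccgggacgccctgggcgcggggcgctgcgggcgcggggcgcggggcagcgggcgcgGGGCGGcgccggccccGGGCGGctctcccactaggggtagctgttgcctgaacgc
Dio3, chr12:110278980-110279067, plus strand: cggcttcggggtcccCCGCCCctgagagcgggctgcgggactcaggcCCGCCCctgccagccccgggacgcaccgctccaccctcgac
Meg3, chr12:109540746-109540995, plus strand: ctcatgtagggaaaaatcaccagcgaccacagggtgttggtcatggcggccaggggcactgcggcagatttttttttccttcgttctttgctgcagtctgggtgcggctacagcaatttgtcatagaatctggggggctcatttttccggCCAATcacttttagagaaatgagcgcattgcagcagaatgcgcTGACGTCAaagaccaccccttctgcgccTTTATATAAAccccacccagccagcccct

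RefSeq promoter windows were matched for 6 of the 7 genes. In the 250 bases before the RefSeq start, Dio3os had 44 CpG dinucleotides and 82.0% G and C, against medians of 6 and 52.4% over 32841 promoters, of which 0.539% had at least 44 CpG. Dio3 had 21 CpG and 69.6% G and C in its window, and Meg3 had 10 and 52.4%. The Dio3os window held 2 GC boxes and no match to the other motifs searched. The Dio3 window held 4 GC boxes, 2 CCAAT boxes and 1 TATA box. Meg3 had 1 cyclic AMP response element, 1 CCAAT box and 2 overlapping TATA boxes, and no GC box. None of the windows of the 6 genes had the AP-1 motif TGANTCA. Among all promoters 32.7% held a GC box, 33.9% a CCAAT box, 12.4% a TATA box, 6.75% the AP-1 motif and 1.55% the cyclic AMP response element. These letters describe the windows and show no bound factor.

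Per kb of exon, Dio3 was among the most abundant RNAs of these cells. In the 7 untreated libraries its level per kb was above that of 98.1% to 99.2% of the genes ranked (mean of at least 10 normalised counts), and in the 7 treated libraries above 79.2% to 97.2%. Dio3os ranked above 76.8% to 89.6% of genes in untreated and 29.5% to 69.6% in treated libraries. Rian (82.6% to 94.5%) and Meg3 (75.1% to 91.5%) were high in all 14 libraries, and Mirg was in the middle (30.3% to 50.9%). Dlk1 ranged most, from 3.79% to 77.7%. H19 was low throughout (2.71% to 18.6%) and rested on 4 to 52 reads per library.

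At 5 h in replicates 2 to 4, Dio3 fell with AMG 4.83-fold while no change was called for Meg3, Rian, Mirg, Dlk1 or H19. The normalised counts of Dio3 were 6545, 5340 and 9457 in untreated replicates 2, 3 and 4 and 1182, 1642 and 1508 in the treated ones. Each treated library was below each untreated library. The means were 7114 ± 2117 untreated and 1444 ± 237 treated (SD, n = 3 each), a log2 fold change of -2.27 ± 0.23 (SE, log2 of count + 1) with an adjusted p of 0.0190 in limma. Of 13096 genes tested, 1.24% were called and 0.267% were called lower, and 13.6% had all 3 treated libraries below all 3 untreated ones. The call of Dio3 depended on which libraries were in the fit. Without untreated replicate 2 or 4, or treated replicate 2 or 4, the log2 fold change stayed between -2.31 and -2.05. The limma adjusted p was then 0.0929, 0.0583, 0.123 and 0.108. With a replicate block, which estimates the change within replicate numbers, the adjusted p was 2.36e-05 and 19.3% of genes were called lower. The 9 fibroblast markers summed to between 441638 and 615253 normalised counts in the untreated and between 345781 and 448077 in the treated libraries. Of the 9, 7 had a negative log2 fold change, with a median of -0.32, and none was called in limma without the block. The 8 keratinocyte markers summed to 155 to 313 untreated and 90.2 to 150 treated, without overlap. The sums of the keratinocyte, Schwann cell, skeletal and muscle precursor lists were lower in the treated library of each of the 3 pairs. In limma without the replicate block no marker of these lists was called. With it, 5 of 9 tested fibroblast, 2 of 3 keratinocyte, 1 of 3 Schwann cell, 2 of 5 skeletal and 1 of 2 muscle precursor markers were called lower. Under it 1 skeletal marker was called higher, as were 17.9% of all genes, against 19.3% lower. The part of these cells in the fall of Dio3 was not tested.

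Dio3os, the noncoding RNA beside Dio3, was chosen by its lower normalised counts in the treated libraries of this comparison, and the other genes by their place at the locus or their imprinting, so its values here are a description. It was at 515, 769 and 820 normalised counts in untreated replicates 2, 3 and 4 and at 54.7, 165 and 63.3 in the treated ones. The treated libraries were all below the untreated ones, at 10.6%, 21.4% and 7.71% of their level. The log2 fold change was -3.03. Dio3os was the more lowered of the divergent pair in each replicate, with log2 ratios of -3.21, -2.21 and -3.68 in replicates 2, 3 and 4 against -2.47, -1.70 and -2.65 for Dio3.

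**Figure D1:**
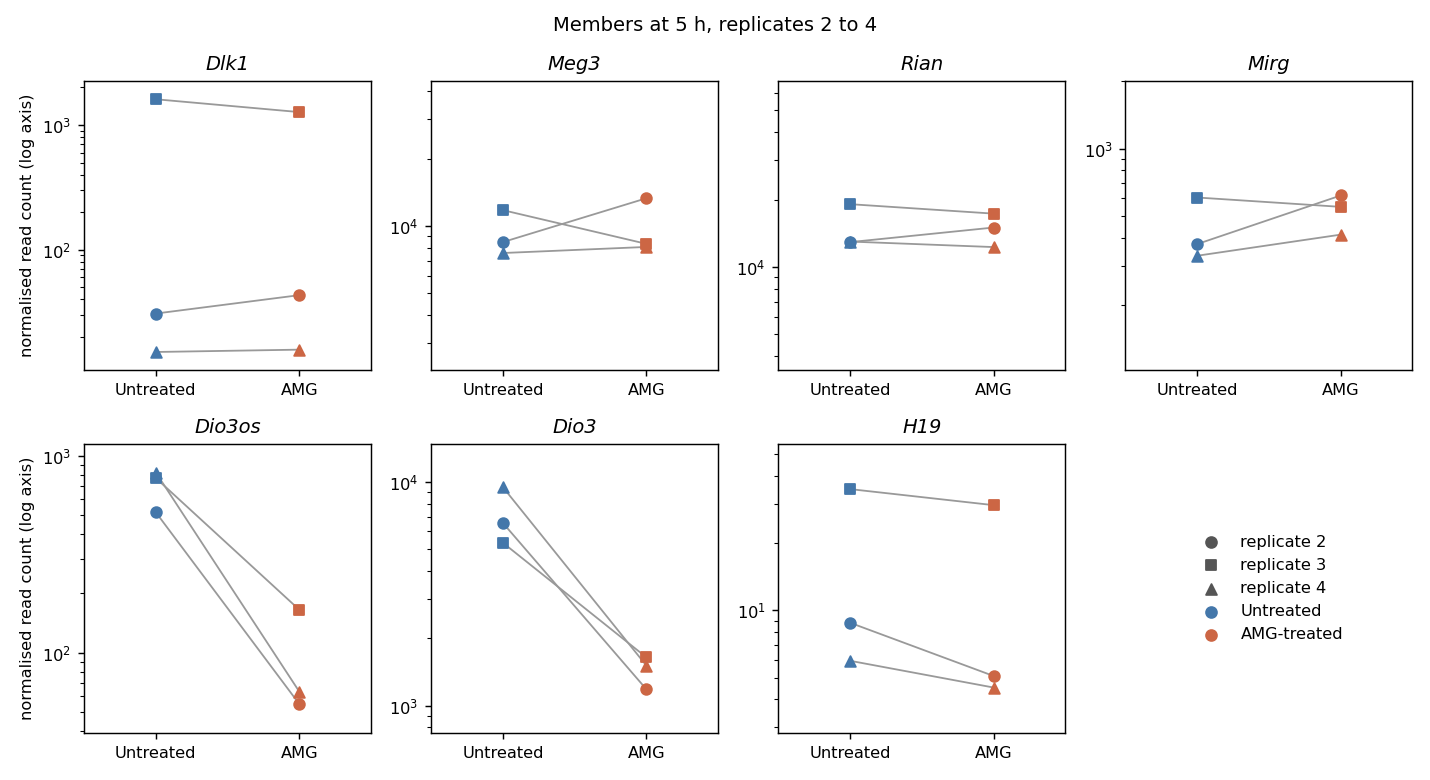
Normalised read counts (log axis) of the 7 genes at 5 h in untreated and AMG-treated libraries of replicates 2, 3 and 4; each symbol is 1 library and lines join libraries with the same replicate number. Only Dio3os and Dio3 have all treated libraries below all untreated ones, and Dlk1 and H19 are highest in replicate 3 in both groups.

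The maternal noncoding RNAs of the cluster showed no such difference. Meg3 was at 8475, 11771 and 7573 normalised counts in untreated and 13308, 8320 and 8062 in treated replicates 2, 3 and 4. Its groups overlapped, and the log2 fold change was 0.08 with a 95% interval of -0.52 to 0.68 (limma adjusted p = 0.876). Rian, a host of small nucleolar RNAs, was at 12903, 19068 and 12979 in untreated and 14994, 17300 and 12263 in treated libraries. Its log2 fold change was -0.00 with an interval of -0.50 to 0.50 (limma adjusted p = 0.997). Mirg, a host of microRNAs, was at 375, 606 and 333 in untreated and 618, 550 and 413 in treated libraries. Its groups overlapped as well, with a log2 fold change of 0.30 and an interval of -0.34 to 0.93 (limma adjusted p = 0.531). None of these 3 intervals reached the change of Dio3.

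The difference between Dio3 and these neighbours was tested within libraries, where the ratio of 2 genes does not depend on the scaling, over all 4 untreated and 4 treated libraries at 5 h. The log2 ratio of Dio3 to Meg3 was -0.02 ± 0.96 (SD, n = 4) untreated and -2.61 ± 0.59 treated, a difference of -2.59. The log2 ratio of Dio3 to Rian differed by -2.23 and that of Dio3 to Mirg by -2.50. In all 3 cases each treated library lay below each untreated one, with p = 0.0286 by an exact two-sided permutation test, the smallest that 70 arrangements allow, and 0.0381 after Benjamini-Hochberg adjustment over 4 comparisons. The fourth, the log2 ratio of Dio3 to Dlk1, differed by -2.18 and its groups overlapped (exact permutation p = 0.371, adjusted 0.371). Replicates 2 to 4 supplied most of these libraries, and Dio3 had already been found lower in them. The outcome was thus partly fixed beforehand, and the p-values are a description. These tests also ignore the replicate numbers. Within pairs, the difference was negative in 4 of 4 replicates for each of the 4 neighbours, and an exact sign-flip test gave p = 0.125 for each, the smallest that 4 pairs allow, so none passed when paired. For Dlk1 the paired differences were -1.71, -2.95, -1.36 and -2.71 in replicates 1 to 4. For Meg3 they were -3.30, -3.12, -1.20 and -2.74. The first of these used the untreated 5 h library with the ribosomal protein share of 7.003%, and the part of that share in the ratios was not tested.

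Dlk1 differed between replicate numbers far more than between treatments. It was at 30.8, 1610 and 15.1 normalised counts in untreated and 43.3, 1270 and 15.8 in treated replicates 2, 3 and 4. Replicate 3 was high in both groups, 38.1-fold above replicate 2 and 86.8-fold above replicate 4. The log2 fold change with AMG was 0.06 with an interval of -5.01 to 5.13 (limma adjusted p = 0.990), so that no change of a useful size could be judged without pairing. With the replicate block the interval narrowed to -0.44 to 0.57.

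H19 was close to the limit of counting. Its normalised counts were 8.80, 34.8 and 5.95 in untreated and 5.09, 29.5 and 4.52 in treated replicates 2, 3 and 4, from 4 to 36 reads. The treated library was the lower one in each replicate, but the groups overlapped, and the log2 fold change of -0.42 had an interval of -2.62 to 1.79 (limma adjusted p = 0.818). No change of H19 was called.

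Genes around the domain gave the wider context. Begain, listed as imprinted and lying upstream of Dlk1, was at 46.1 ± 53.1 normalised counts untreated and 55.2 ± 35.4 treated (SD, n = 3 each), with a log2 fold change of 0.69 and a limma adjusted p of 0.669. Rtl1, the paternal retrotransposon-derived gene between Meg3 and Rian, had at most 4 reads in any library. Of 41 microRNA genes of the locus found in the tables, 29 had no read and the highest count was 11 in these poly(A) libraries. Mir1247, at the start of Dio3os, had at most 1 read. Of the 16 genes listed on either side of the domain, 14 were tested: Evl, Yy1, Slc25a29, Slc25a47, Wars and Wdr25 on the Dlk1 side and Ppp2r5c, Dync1h1, Hsp90aa1, Wdr20, Mok, Zfp839, Cinp and Tecpr2 on the Dio3 side. None passed an adjusted p of 0.05 in limma, edgeR or DESeq2 (1.24%, 1.03% and 10.9% of all genes) and 2 passed an unadjusted p of 0.05 in limma, as 23.1% of all genes did. Of the 14, 12 had a positive and 2 a negative log2 fold change, and the median was 0.19 against -0.02 over all genes tested. Their log2 fold changes lay between -0.51 (Tecpr2) and 0.78 (Slc25a47), and none came near those of Dio3 and Dio3os. With the replicate block, under which 17.9% of all genes were called higher and 19.3% lower, Slc25a47 and Cinp were called higher and Tecpr2 lower, no more than that background, and Tecpr2 was also called without treated replicate 3 (log2 fold change -0.73, limma adjusted p = 0.0276).

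**Figure D2:**
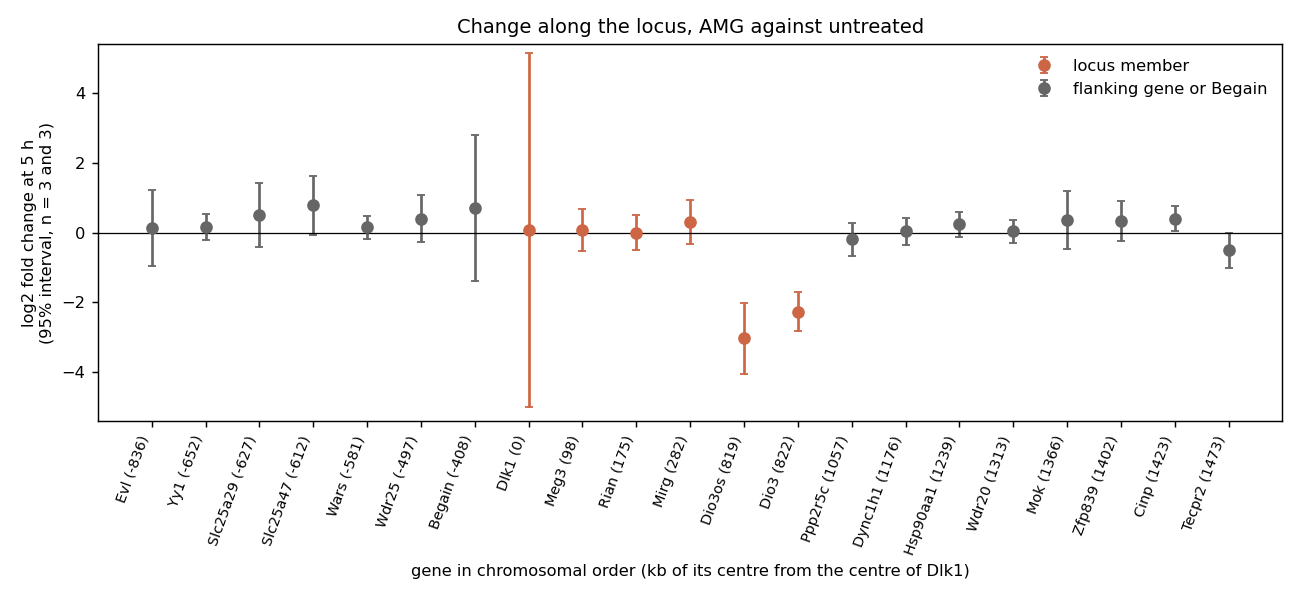
Log2 fold change at 5 h (AMG against untreated, 3 libraries each) with 95% limma intervals for genes in chromosomal order, labelled with the distance in kb between their centre and that of Dlk1. Dio3os and Dio3 stand at -3.03 and -2.27, and all 14 flanking genes lie between -0.51 and 0.78.

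Replicate 1 was not in the comparison by which Dio3os was chosen. The members were chosen with earlier results of these data known, so the values of Dio3os here are a description too. Dio3 was at 8075, 12193, 12128 and 9877 normalised counts in the untreated libraries at 1, 5, 12 and 24 h and at 8006, 3340, 702 and 1234 in the treated ones. At 1 h the treated library held 99.1% of the untreated level, and from 5 h on it was lower. The treated 1 h and untreated 5 h libraries were those with the high ribosomal protein shares (5.10% and 7.003%). The part of these shares in the ratios of Dio3 was not tested. The log2 ratios were -0.01, -1.87, -4.11 and -3.0 at 1, 5, 12 and 24 h, with 1 library per group and time. The summed leukocyte markers were at 1284, 1796, 1086 and 1058 in the untreated libraries at 1, 5, 12 and 24 h. In the treated ones they were at 1155, 493, 485 and 364, likewise closest at 1 h. The Schwann cell sums were at 1908, 3288, 2065 and 2523 untreated. Treated, they were at 2250, 1322, 1077 and 1979, thus lower from 5 h on but not at 1 h. The muscle precursor and endothelial sums were lower in the treated library at each time. The keratinocyte, skeletal and fibroblast sums were lower in it at 1, 12 and 24 h but not at 5 h. The adipocyte sum was lower in it at 5 and 12 h only. The part of these cells in the ratios of Dio3 was not tested. At 12 h the treated library held 5.79% of the untreated level, and only 0.0741% of 13498 genes had a lower ratio.

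Dio3os was at 542, 1626, 975 and 698 normalised counts in untreated and 337, 391, 106 and 156 in treated libraries at 1, 5, 12 and 24 h. The untreated level was highest at 5 h, in the library with the ribosomal protein share of 7.003%, whereas the treated level was lowest at 12 h, as for Dio3. Its log2 ratios were -0.68, -2.05, -3.19 and -2.16. At 1 h it was thus below the untreated level, to a degree that 21.0% of genes exceeded.

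As a share of the normalised count of Dio3, Dio3os was 6.72%, 13.3%, 8.04% and 7.06% in the untreated libraries of replicate 1 at 1, 5, 12 and 24 h and 4.21%, 11.7%, 15.1% and 12.6% in the treated ones. At 12 and 24 h, when both genes were low, the share was higher in the treated library. In replicates 2, 3 and 4 at 5 h it was the reverse, with 7.87%, 14.4% and 8.67% untreated and 4.63%, 10.0% and 4.19% treated.

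**Figure D3:**
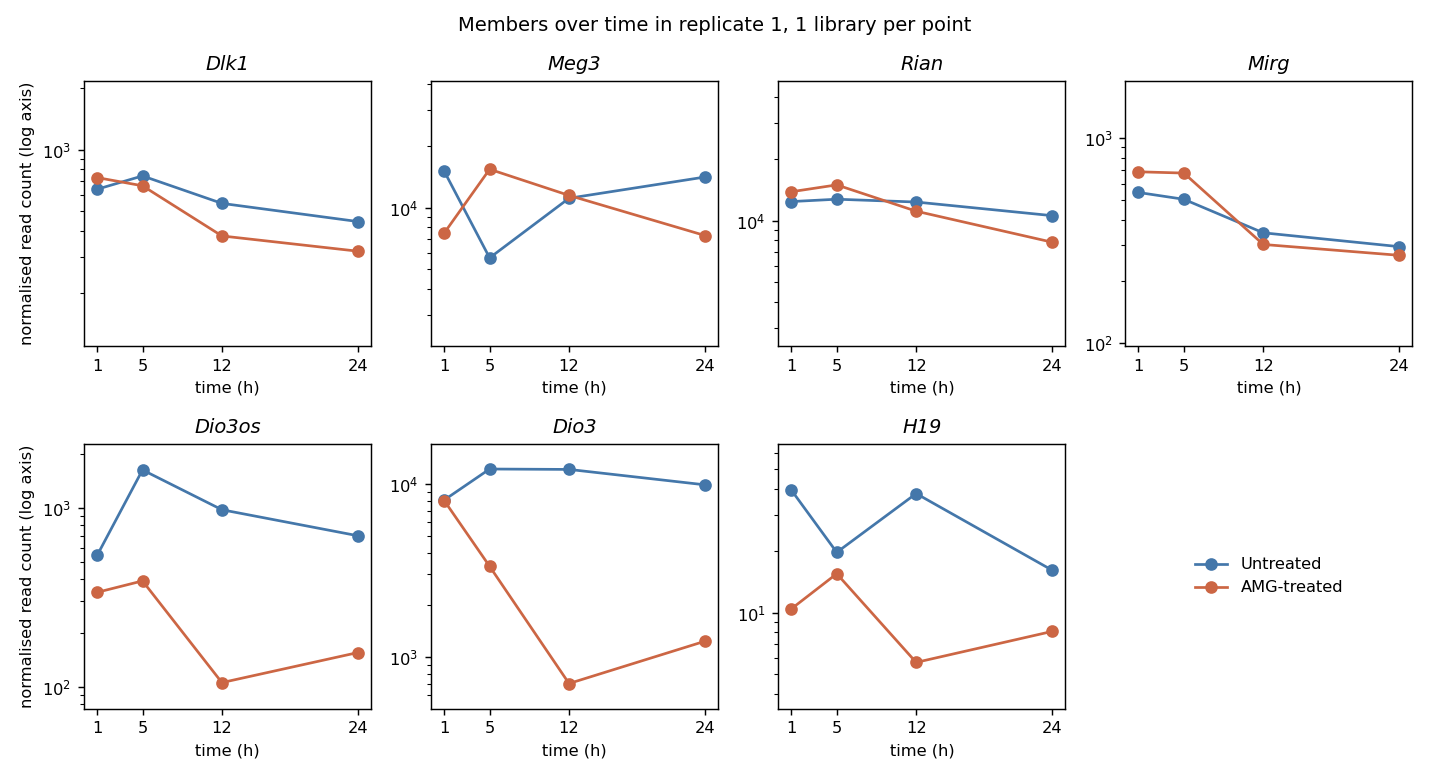
Normalised read counts (log axis) of the 7 genes at 1, 5, 12 and 24 h in replicate 1, with 1 library per point, untreated in blue and AMG-treated in orange. Dio3 is at 8075 and 8006 at 1 h and at 12128 and 702 at 12 h, while Rian stays between 7837 and 14918 in all 8 libraries.

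Over the 4 times of replicate 1, with time in the model, none of the 7 genes passed an adjusted p of 0.05 in limma (0.563% of 13498 genes did, and 0.0445% as lower). This fit takes its spread from how the treatment difference varied over times, and the log2 ratio of Dio3 was -0.01 at 1 h, in 1 pair of libraries. The log2 difference was -2.25 ± 0.60 (SE) for Dio3 (unadjusted p = 0.00744, limma adjusted p = 0.280) and -2.02 ± 0.39 for Dio3os (unadjusted p = 0.00125, limma adjusted p = 0.122). At an unadjusted p under 0.05, 3 of the 7 genes passed, against 8.67% of all genes. Without the 1 h libraries limma called Dio3 at -2.99 (adjusted p = 0.0325) and Dio3os at -2.47 (adjusted p = 0.0188). More of all genes were called in that fit than with all 4 times. DESeq2 on the recovered reads called both (3.3% of all genes), whereas edgeR called none of the 7 (0.474% of all genes). Among all the other limma, edgeR and DESeq2 fits tried, the highest adjusted p was 0.996 for Dio3 and 0.551 for Dio3os. Dio3, Dio3os and H19 had all 4 treated libraries below all 4 untreated ones, as 1.71% of genes did.

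H19 was the third of these. It was at 39.6, 19.7, 38.1 and 16.1 normalised counts in the untreated libraries at 1, 5, 12 and 24 h and at 10.4, 15.5, 5.72 and 8.10 in the treated ones. The log2 ratios were -1.83, -0.33, -2.54 and -0.91, and the log2 difference over the times was -1.40 ± 0.50 (SE, limma adjusted p = 0.463). All of this rested on 6 to 52 reads per library. Of the neighbours of H19, Igf2 was at a mean of 32.9 normalised counts in replicate 1 with log2 ratios of 0.62, 0.59, -0.44 and -0.34 at 1, 5, 12 and 24 h, and was below the mean of 10 needed for a test in the other table. Mrpl23 (log2 fold change 0.32) and Lsp1 (-0.04) were not called at 5 h, Tnnt3 was at a mean of 20.0 in replicate 1, and Mir675, which lies within H19, had no read. Over the times of replicate 1, 4 listed genes of the domain other than H19 were tested. Their log2 differences lay between -0.98 and 0.11, 1 positive and 3 negative. None was called in limma (lowest adjusted p = 0.511). At an unadjusted limma p under 0.05, 1 of the 4 passed, against 8.67% of all genes.

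The rest of the cluster moved little or without order in replicate 1. Dlk1 was at 641, 744, 547 and 446 normalised counts in untreated and 730, 666, 379 and 320 in treated libraries at 1, 5, 12 and 24 h. Its treated level was slightly above the untreated level at 1 h and below it later, with log2 ratios of 0.19, -0.16, -0.53 and -0.48. Rian had log2 ratios of 0.16, 0.23, -0.15 and -0.43 and Mirg of 0.33, 0.42, -0.19 and -0.14, so both were higher in the treated library at 1 and 5 h and lower at 12 and 24 h. Mirg was at 543, 503, 345 and 296 in untreated and 685, 675, 303 and 268 in treated libraries, and was the lower the later the time in both groups. Rian was at 12371, 12701, 12307 and 10561 untreated and 13815, 14918, 11106 and 7837 treated.

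Meg3 swung most among the maternal RNAs. It was at 15036, 5688, 11110 and 14101 normalised counts in untreated and 7519, 15380, 11466 and 7304 in treated libraries of replicate 1. Its log2 ratios were -1.0, 1.44, 0.05 and -0.95 at 1, 5, 12 and 24 h, and so changed sign. Of the 3 libraries with the lowest Meg3, the untreated 5 h and treated 1 h libraries were those with the high ribosomal protein shares (7.003% and 5.10%), and the treated 24 h library was at 3.13%; the part of these shares in the values of Meg3 was not tested. In the same libraries the ratio of Meg3 to Rian was 0.448, 0.544 and 0.932, against 0.903 to 1.34 in the other 5.

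**Figure D4:**
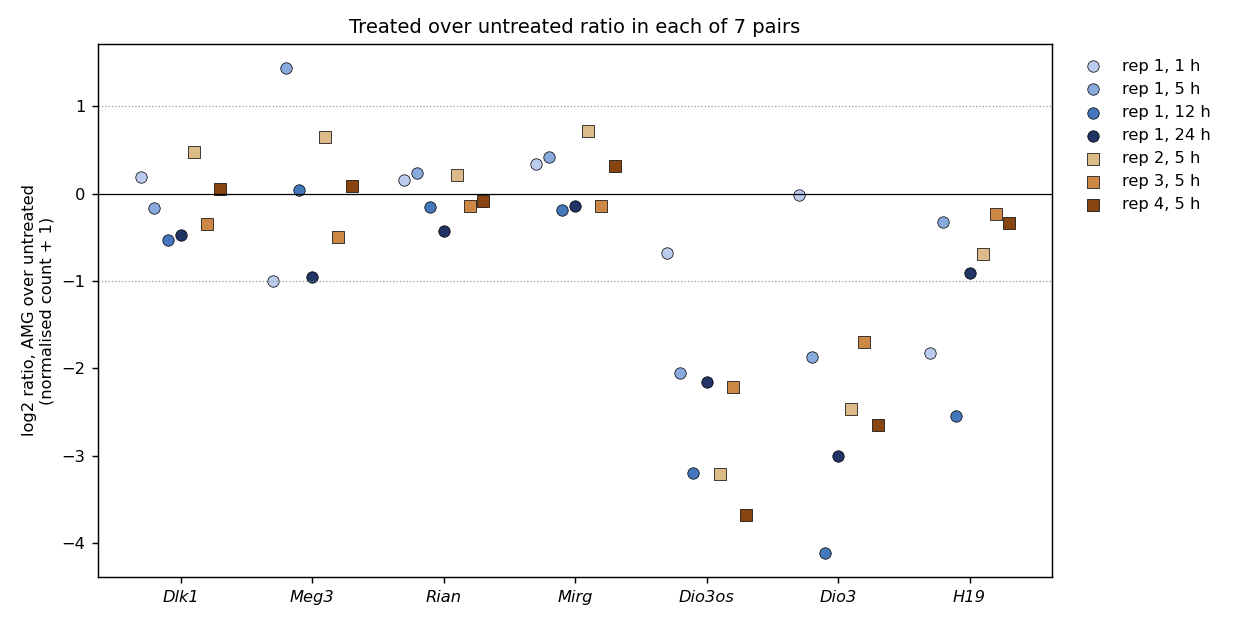
Log2 ratio of AMG-treated to untreated normalised count (+ 1) for each gene in the 7 pairs of libraries, circles for replicate 1 at 1, 5, 12 and 24 h and squares for replicates 2, 3 and 4 at 5 h; dotted lines mark -1 and 1. Dio3os and Dio3 lie below -1 in 6 of 7 pairs, and Dlk1, Rian and Mirg lie between -1 and 1 in all 7.

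Of the 28 ratios of the 7 genes in replicate 1, 9 were beyond -1 or 1. Below -1 were Dio3 and Dio3os at 5, 12 and 24 h and H19 at 1 and 12 h, and above 1 was Meg3 at 5 h. Among 13498 genes, 10.7%, 12.6%, 6.9% and 8.05% had a ratio below -1 at 1, 5, 12 and 24 h, and 11.3%, 13.3%, 5.93% and 6.05% had one above 1. The ratio of Dio3 at 5 h was -1.87 in replicate 1 and between -2.65 and -1.70 in replicates 2 to 4, and that of Dio3os was -2.05 and between -3.68 and -2.21.

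Beside the treatment, replicate number separated the levels of 3 of the 7 genes at 5 h (limma F test with treatment in the model, adjusted p under 0.05), where 29.5% of all genes were called. Dlk1 (adjusted p = 1.75e-06), H19 (adjusted p = 0.0178) and Rian (adjusted p = 0.0252) were called in limma, each with replicate 3 the highest. H19 was 4.28-fold and 5.34-fold higher in replicate 3 than in replicates 2 and 4, and Rian 1.31-fold and 1.44-fold. The call of Rian was lost without the trend in the spread (limma adjusted p = 0.147). Dio3os (adjusted p = 0.0531), Mirg (0.0803), Dio3 (0.196) and Meg3 (0.255) were not called in limma. Upstream of Dlk1, Begain and Evl were called too and highest in replicate 3 (limma adjusted p = 0.0174 and 0.000723). Replicate 3 also had the markers that stood apart. Tek was at 226 and 110 in its untreated and treated libraries, against at most 17.6 in the other 4. Lum was at 333 and 219 there, against 6374 and 5340 in replicate 2 and 1539 and 1423 in replicate 4. The part of the mix of cells in these differences was not tested. Time separated none of the 7 genes in replicate 1 (limma F test with treatment in the model, 0.0148% of genes called), nor did edgeR call any. At an unadjusted p under 0.05, which 13.2% of all genes passed, only Mirg passed in limma.

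The genes with the most similar profiles were sought over the 14 libraries, after each table was centred on its own mean, among 12844 genes. The libraries share batches, times and treatments, so Pearson's r is only a description. For Dio3 the nearest were Wls (0.97), Cables1 (0.96) and Lmod1 (0.95), and Dio3os was in place 13 (0.91). For Dio3os they were Cables1 (0.94), Add3 (0.94) and Plch2 (0.92), with Dio3 in place 4. For Dlk1 they were Slc16a11 (0.98), the fibroblast marker Thy1 (0.98) and Bves (0.97), and for Rian Sec24a (0.91), Zfp9 (0.89) and the nearby Begain (0.89), with Mirg in place 27 (0.83). Mirg was closest to Ret (0.95), Tpm4 (0.94) and Zfp326 (0.94), Meg3 to Cbll1 (0.87), Gm6483 (0.83) and Dusp11 (0.83), and H19 to Pja1 (0.89), Cd248 (0.89) and Cmah (0.89).

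Because Dio3 inactivates thyroid hormone, 22 genes of thyroid hormone activation, transport and response were counted at 5 h. Of 18 tested, DESeq2 called 5 and edgeR 0 (10.9% and 1.03% of all genes). At an unadjusted limma p under 0.05, 6 passed (23.1% of all genes). In limma 1 was called higher and 0 lower (0.97% and 0.267% of all genes), with a median log2 fold change of -0.15 against -0.02 over all genes. The one called was Hr, a corepressor of thyroid hormone receptors and itself a known thyroid hormone target, at 203 ± 79.3 normalised counts untreated and 963 ± 338 treated (SD, n = 3 each). Its log2 fold change was 2.24 ± 0.38 (SE, limma adjusted p = 0.0497, 0.0545 in edgeR, and 0.0824 to 0.226 in limma without untreated replicate 2, 3 or 4 or treated replicate 2 or 4), and its log2 ratios in replicate 1 were 0.36, 2.71, 1.00 and 0.90. Dio2, the deiodinase that activates thyroid hormone and thus acts opposite to Dio3, was looked at after its values were seen. It was at 39.3 ± 29.9 normalised counts untreated and 202 ± 180 treated, a log2 fold change of 2.22 ± 0.71 that was not called (limma adjusted p = 0.144) except within replicate numbers (limma with replicate block, adjusted p = 0.000182). In replicate 1 its log2 ratios were -0.76, 2.24, 3.71 and 4.26 at 1, 5, 12 and 24 h. Dio1, the third deiodinase, had at most 1 read. With the replicate block 3 of the 18 were called higher and 5 lower (17.9% and 19.3% of all genes).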

How the data were processed

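Per the labels and the study's methods, stranded poly(A) libraries were sequenced single-end, reads were aligned to mm10 with TopHat2 2.0.13, and reads per gene were counted with HTSeq 0.5.3p3. The authors deposited a normalised signal, read counts divided by DESeq size factors, in a table of 8 and a table of 6 libraries. Divided by the step of its low values, 100% of each library came out as whole reads (tolerance 0.1). On log2(count + 1), limma 3.58.1 with trend (R 4.3.3) was fitted to genes with a mean of at least 10, with Benjamini-Hochberg adjustment over all genes; the test was checked on simulated data. Same-numbered libraries at 5 h deviated together (r = 0.65, 0.76 and 0.70; others -0.59 to 0.12), so a replicate block was an alternative, with edgeR 4.0.16 and DESeq2 1.42.0 on recovered reads. Replicate 1 was fitted with time. The members, lists and motifs were chosen with earlier results of these data known. Besides the members, locus genes with a mean of at least 10, at most 4 called genes of each other list, and the 3 most similar genes of each member were named. The 95% intervals are from limma and rest on the spread between libraries.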

Additional observations from a re-analysis of the deposited data

How the results depend on the processing

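At 5 h, Dio3 passed in limma and under each other pseudocount, filter and scaling tried, in edgeR, in DESeq2, without the trend and with the replicate block. Dio3os was chosen on these values, so its passing is no evidence; counted with it, 2 of the 7 genes passed in limma, 1 without the trend (Dio3), 0 to 2 when 1 library was left out, and 3 with a length correction and the replicate block, where Rian passed at 0.31 (adjusted p = 0.0415). The replicate block changed no other call of a member. Over the 4 times of replicate 1, 0 passed, against 2 in DESeq2, 1 with the length correction (Dio3os), 2 without 1 h and 2 without 1 h and 5 h, the last chosen after seeing the data. The ratio of Dio3 to a neighbour within a library differed by -3.05 to -2.35 for Meg3, -2.45 to -2.08 for Rian, -2.81 to -2.27 for Mirg and -2.45 to -1.92 for Dlk1 when 1 replicate number was left out, where the smallest p that 3 against 3 allow is 0.1. With a replicate block (exact sign-flip test, added after seeing the data) the differences of -2.59 for Meg3, -2.23 for Rian and -2.50 for Mirg no longer passed (p = 0.125, the smallest possible). Values near 0 turned sign without a call: Dlk1 at 5 h in edgeR (-0.29), edgeR with replicate block (-0.11), edgeR on all 4 replicates with replicate block (-0.039) and with a library left out (-1.78 to 2.12), Rian with upper quartile scaling (0.0016), in edgeR with replicate block (0.0068), on all 4 replicates (0.067) and with a library left out (-0.12 to 0.18), and H19 (-1.22 to 0.29) and Meg3 (-0.15 to 0.27) with a library left out; in replicate 1, Meg3 without 1 h (0.18) or 24 h (0.16), Rian without 24 h (0.081) and Mirg without 1 h and 5 h (-0.16). Genes called at 5 h numbered 162 in limma, 80 without the trend, 1433 in DESeq2, 495 in edgeR on 4 replicates, 4872 with the replicate block, 4852 with it in edgeR, 4270 with the length correction as well and 1 to 2199 with a library left out; over the times 76, against 41 without the trend, 445 in DESeq2, 237 without 1 h, 15 without 12 h, 13 without 24 h and 1655 without 1 h and 5 h; between replicate numbers 3860 against 1593 without the trend, and between times 2 against 0 with a pseudocount of 10. The causes were not tested. H19 rested on 4 to 52 reads in a library.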

Other observations

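Further gene lists, chosen with earlier results of these data known, were counted at 5 h in replicates 2 to 4, where 0.97% of all genes were called higher and 0.267% lower in limma, 1.03% were called in edgeR and 10.9% in DESeq2, 23.1% passed an unadjusted limma p of 0.05, and the median log2 fold change was -0.02. Of 36 tested imprinted genes of other loci, DESeq2 called 2 and edgeR 1, and 6 passed an unadjusted limma p of 0.05. In limma 1 was called higher and 0 lower, with a median of -0.05. The one called was Blcap, at 1062 ± 74.4 normalised counts untreated and 2189.9 ± 418 treated (SD, n = 3 each), a log2 fold change of 1.03 (limma adjusted p = 0.0438, and 0.0764 to 0.219 without untreated replicate 2, 3 or 4 or treated replicate 2 or 4). Of 19 tested regulators of imprinting and chromatin, DESeq2 called 2 and edgeR 1, and 3 passed an unadjusted limma p of 0.05. In limma 1 was called higher, with a median of -0.20. It was Dnmt3l, a catalytically inactive partner of de novo DNA methyltransferases in germ cells, at 5.21 ± 0.92 untreated and 62.3 ± 28.7 treated, a log2 fold change of 3.27 (limma adjusted p = 0.0335, and 0.0629 to 0.178 without the same libraries). There were 16 tested genes of Notch signalling and fat cell differentiation, in which Dlk1 acts. DESeq2 called 6 of them and edgeR 1, and 8 passed an unadjusted limma p of 0.05. In limma 1 was called higher, with a median of -0.17. It was Rbpj, the DNA-binding partner of Notch, with a log2 fold change of 1.10 (limma adjusted p = 0.0266, and 0.0584 to 0.135 without the same libraries) and log2 ratios of 0.63, 1.97, 1.58 and 1.73 at 1, 5, 12 and 24 h in replicate 1. Of 7 tested genes of the Igf2 axis none was called in limma or edgeR and 1 in DESeq2 (1 at an unadjusted limma p under 0.05, median -0.46), and of 10 tested nuclear noncoding RNAs none in limma or edgeR and 3 in DESeq2 (5 at an unadjusted limma p under 0.05, median 0.07). With the replicate block, under which 17.9% of all genes were called higher and 19.3% lower, 6 imprinted genes were called higher and 9 lower, 1 and 7 of the regulators, 4 and 5 of the Notch and fat cell genes, 0 and 4 of the Igf2 axis and 4 and 2 of the nuclear noncoding RNAs. Over the 4 times of replicate 1, limma and edgeR called none of the genes of these lists and DESeq2 called 1 imprinted gene, 1 regulator and 3 Notch and fat cell genes; at an unadjusted limma p under 0.05 there were 4, 2 and 6. Of all genes, 3.3% were called in DESeq2 and 8.67% passed the unadjusted p in that fit.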
